A study of Drosophila melanogaster with 17 samples.

Results

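The genes described here encode microtubule motors and the tubulins they run on, measured in whole brains of adult Drosophila melanogaster that express human tyrosyl-tRNA synthetase (TyrRS) in neurons. They were taken by name from the count table: symbols that begin with Dhc, Klp, Kif, alphaTub, betaTub or gammaTub, together with Khc, Klc, unc-104, ctp, robl, Gl and btv. All 36 genes that match had reads in at least 1 library, and 16163 genes of the table did. By role they fall into 4 genes of cytoplasmic dynein and its activator dynactin, 1 intraflagellar dynein, 5 axonemal dynein heavy chains, 16 kinesins and 10 tubulins.

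Poly(A) RNA was sequenced from flies aged 10 days in 17 libraries of 5 genotypes. All of them carry nSyb-Gal4, a driver that is active in all neurons, and the control (nSyb-Gal4 with no transgene, 3 libraries) carries nothing else. The transgenic genotypes express TyrRS-WT (3 libraries), TyrRS-WT∆NLS (3), TyrRS-E196K (4) or TyrRS-E196K∆NLS (4), where E196K is a substitution that causes a dominant Charcot-Marie-Tooth neuropathy and ∆NLS is a nuclear localization signal mutated to carry less charge, written NLS in the sample labels. The number of transgene copies also differs between genotypes, being lowest for TyrRS-E196K, highest for TyrRS-E196K∆NLS and equal for TyrRS-WT and TyrRS-WT∆NLS. Copy number therefore cannot be told apart from the genotype in any comparison but that of TyrRS-WT with TyrRS-WT∆NLS. The sequencing was run in batches, and which library belongs to which batch is not given in the sources used here, so that the part of the batch in the results was not tested. RNA was extracted in replicate for each genotype and the methods call the samples independent without saying whether they are separate groups of flies, so the p-values measure the spread between these libraries.

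In axons, microtubules lie with one end towards the synapse. Most kinesins walk towards that end and carry vesicle precursors, mitochondria and other cargo outwards, while cytoplasmic dynein, held to its cargo by dynactin, carries signals and used organelles back to the cell body. Axonemal dyneins are a separate branch of the family that bends cilia and flagella. In flies their known sites of use are sperm tails and the ciliated chordotonal neurons that sense sound and stretch. Tubulin is a dimer of an alpha and a beta subunit, gamma tubulin seeds new microtubules, and several tubulin genes are reserved for the germ line or for certain tissues.

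The libraries held between 29380481 and 56030758 counts on genes. Expression is given as CPM, read counts scaled to 1 common library size after TMM, which sets the bulk of genes equal between libraries. Summed over 8 neuronal markers the libraries were at 6614 to 9507 CPM, and over 6 glial markers at 2417 to 3215 CPM. Glial sums of control, from 2796 CPM upwards, lay above every TyrRS-WT library (at most 2600) and every TyrRS-E196K library (at most 2788). Control overlapped both ∆NLS genotypes in this sum. The glial sums of TyrRS-E196K∆NLS, from 2754 CPM upwards, lay above those of TyrRS-WT but overlapped those of TyrRS-E196K. Most of the glial sum came from Gs2 and Eaat1. These, alrm and wrapper averaged lower in TyrRS-WT and TyrRS-E196K than in control, but not all markers did. The marker repo averaged 147 CPM in control, 132 in TyrRS-WT and 156 in TyrRS-E196K. For moody the means were 92.9, 103 and 95.5 CPM in the same order. Markers of other tissues had reads as well, and several of their sums did not overlap between some genotypes. Summed, 5 ovary markers were at 3.53 to 3.72 CPM in TyrRS-WT, 5.48 to 9.59 in control and 3.86 to 40.0 in the others. For 19 testis markers the sum was 370 to 419 CPM in TyrRS-E196K∆NLS, 335 to 354 in TyrRS-WT, 298 to 364 in TyrRS-WT∆NLS and 321 to 530 in control. Most of the testis sum came from bol alone, at 288 to 520.2 CPM over all libraries, so it says little about the other testis markers. The sum of 12 retina markers was 8814 to 10962 CPM in TyrRS-WT, 15866 to 20633 in control and 9978 to 22838 in the others. The sum of 5 fat body markers was 32908 to 46552 CPM in TyrRS-E196K∆NLS, 22554 to 30718 in control and 10261 to 33338 in the others. In whole tissue, fewer cells of a type and less RNA per cell cannot be told apart.

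Within each family, 1 or a few genes made up most of the transcripts. Of the 36 genes, 30 averaged 1 CPM or more and 19 averaged 10 CPM or more. Per kb of exon, which allows levels of different genes to be compared, alphaTub84B was highest at 553 CPM per kb and made up 89.9% of the alpha tubulin level. It was followed in its family by alphaTub84D at 59.6 CPM per kb, a close copy, so that reads shared by both genes may be misplaced. The maternal alpha tubulin alphaTub67C was at 2.31 CPM per kb and alphaTub85E at 0.113.

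Among the beta tubulins, betaTub56D, the general form, made up 85.5% of the level at 276 CPM per kb. betaTub97EF followed at 35.0 CPM per kb and the developmental form betaTub60D at 10.4, while betaTub85D, which builds the sperm tail, was at 1.37. The lengths of betaTub56D and betaTub60D are less certain, since these genes were matched to the annotation by symbol and not by identifier. Of the gamma tubulins, gammaTub23C, found at centrosomes of somatic cells, was at 20.6 CPM per kb and the maternal gammaTub37C at 0.295.

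Of the kinesins, unc-104, the kinesin-3 motor that carries synaptic vesicle precursors, led with 273 CPM per kb, or 52.5% of the kinesin level. The kinesin-1 light chain Klc and heavy chain Khc followed at 63.6 and 46.8 CPM per kb. The kinesin-2 motor subunits Klp64D and Klp68D were at 35.0 and 30.9 CPM per kb. Klp10A, a kinesin-13 of the spindle, was at 25.6 CPM per kb, and other kinesins with a part in cell division were lower. Klp67A, a kinesin-8, was at 0.820 CPM per kb, Klp3A, a kinesin-4, at 0.591, and Klp61F, the bipolar kinesin-5 of the spindle, at 0.121. Reads of Klp61F are uncertain because 424 of its exon bases overlap those of galene on the other strand and, per the labels, the library kit was unstranded. To a smaller extent unc-104 and Klc also share exon bases with another gene, 168 with CG42392 and 155 with CG32109. Klp59C and Klp59D were close to undetected, with 3 and 8 counts over all libraries.

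In the dynein family, the 2 light chains stood above the heavy chain per kb. The light chain ctp, which also serves proteins other than dynein, was at 146 CPM per kb and the light chain robl at 56.2. The heavy chain Dhc64C, the motor of retrograde transport, was at 28.9 CPM per kb, and Gl, the dynactin subunit that binds microtubules, at 24.1. The axonemal heavy chains among the 36 genes were far lower. Dhc36C, the highest of them over all libraries, was at 0.408 CPM per kb, so that Dhc64C was 70.9 times higher. In control Dhc98D led these axonemal chains with 0.417 CPM per kb, against 0.362 for Dhc36C.

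**Figure D1:**
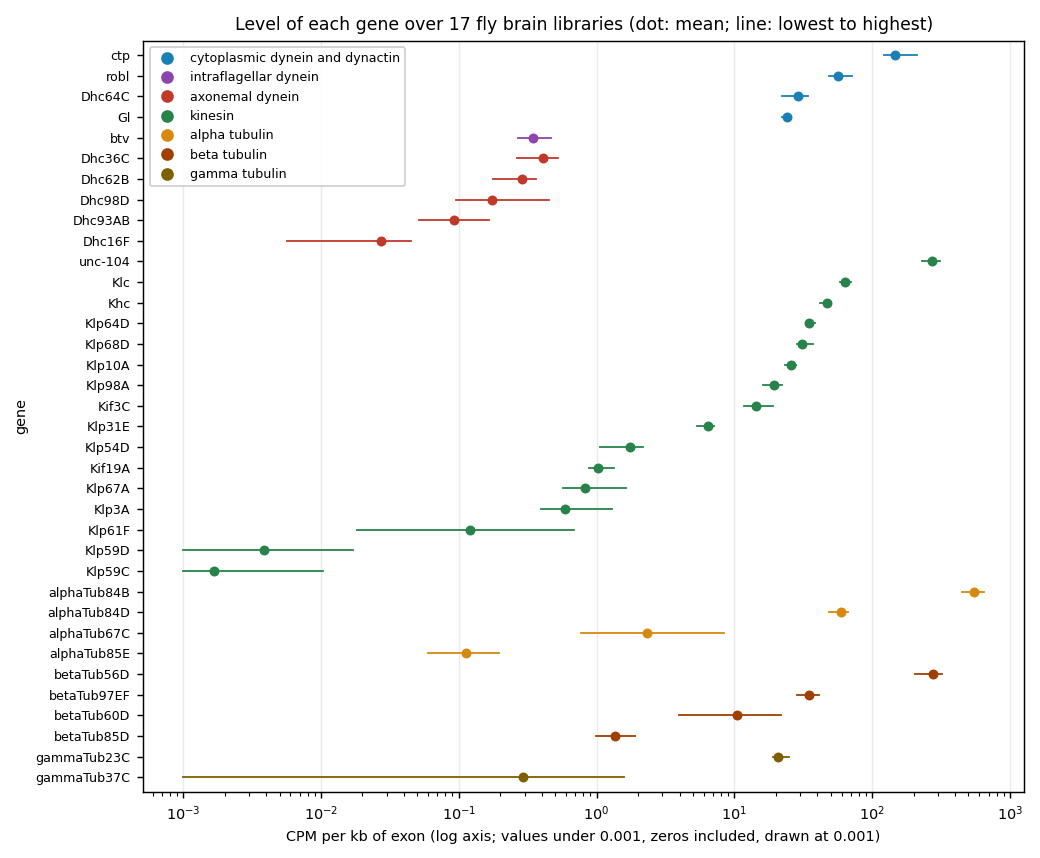
Level of the 36 genes over the 17 libraries in CPM per kb of exon (log axis), grouped by role, with the mean as a dot and the lowest to the highest library as a line. The major tubulins alphaTub84B and betaTub56D and the motor unc-104 are highest, and the means of the axonemal heavy chains are all under 1 CPM per kb.

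The spread between libraries of 1 genotype also differed among the genes. The SD of log2 CPM within genotypes was 0.043 for Gl, 0.057 for Klc, 0.072 for Klp64D and 0.079 for Khc. At the other end it was 1.44 for gammaTub37C, 1.20 for Klp61F, 0.845 for alphaTub67C and 0.495 for betaTub60D. Among genes of a like level, the spread of betaTub60D was above that of 96.9% and the spread of Gl above that of only 0.7%.

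The first question was whether TyrRS in neurons changed these transcripts relative to the driver control. Each genotype was set against the same 3 control libraries with edgeR's quasi-likelihood test, and a gene was called where its p-value, adjusted by Benjamini-Hochberg over all 16163 genes, was under 0.05. In each of the 4 comparisons 1 of the 36 genes was called, the axonemal heavy chain Dhc98D, as lower. Over all genes tested, 6.42% were called for TyrRS-E196K, 2.33% for TyrRS-WT, 4.78% for TyrRS-E196K∆NLS and 3.76% for TyrRS-WT∆NLS. The median log2 fold change over the 36 genes lay between 0.0033 and 0.025 in these comparisons, beside a median of 0 over all genes tested.

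Dhc98D (FBgn0013813) lies on chromosome 3R from 28486953 to 28519398 in BDGP6 and shares no exon bases with another gene. It was at 7.24, 7.0 and 5.68 CPM in the 3 control libraries. It was at 2.27, 1.81 and 1.98 CPM in TyrRS-WT and at 2.16, 1.69 and 1.99 in TyrRS-WT∆NLS. The TyrRS-E196K libraries held 1.87, 1.77, 1.98 and 1.58 CPM, and the TyrRS-E196K∆NLS libraries 1.96, 2.16, 2.15 and 1.52. All 14 transgenic libraries lay below all 3 controls, and the 4 transgenic genotypes overlapped one another. Each of these genotypes differs from control both in holding an inserted transgene and in the TyrRS that it expresses. Effects of the insertion, of the fly line and of the protein therefore cannot be told apart against this control.

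Relative to control the transcript fell by 1.71 on the log2 scale in TyrRS-WT (SE 0.17, edgeR adjusted p = 2.21e-05) and by 1.88 in TyrRS-E196K (SE 0.16, adjusted p = 2.48e-06). It fell by 1.77 both in TyrRS-WT∆NLS (SE 0.17, adjusted p = 1.7e-05) and in TyrRS-E196K∆NLS (SE 0.16, adjusted p = 3.19e-06). These 4 values share the control libraries. Between transgenic genotypes the log2 difference was -0.17 for TyrRS-E196K against TyrRS-WT (95% interval -0.50 to 0.17) and -0.11 for TyrRS-E196K against TyrRS-E196K∆NLS (-0.42 to 0.20). The call against control was made in 25 of 25 alternative fits for each genotype.

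Of the 12 nearest genes with reads, up to 146 kb from Dhc98D, none was called against control in any of the 4 comparisons, with a lowest adjusted p of 0.0714 from edgeR. Several of these genes had almost no reads, such as CG1894 at a mean of 0.023 CPM and the farthest, asRNA:CR46105, at 0.016. For those the lack of a call says little. The next gene along the chromosome, CG31051, had log2 fold changes of 0.04 for TyrRS-WT and 0.05 for TyrRS-E196K∆NLS. Ppn, which follows it, was at -0.72 and 0.66 in the same comparisons, and beat-VI, on the other side of Dhc98D, at -0.02 and -0.05.

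None of the other axonemal heavy chains among the 36 genes was called against control. Dhc36C was at 5.41, 4.72 and 3.27 CPM in control and between 3.97 and 6.52 in the transgenic libraries. Dhc62B was at 2.93, 3.74 and 4.23 CPM in control and between 2.13 and 4.38 in the others. The control libraries overlapped those of every genotype for both genes, and the log2 fold changes lay between 0.07 and 0.35 for Dhc36C and between -0.23 and 0.21 for Dhc62B.

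Dhc93AB, a chain of the outer arm, was at 1.10, 1.88 and 1.05 CPM in control, 0.939, 0.718 and 0.819 in TyrRS-WT and 1.97, 1.10 and 1.97 in TyrRS-WT∆NLS. It was at 1.48, 0.899, 2.32 and 1.02 CPM in TyrRS-E196K and at 1.28, 1.20, 1.12 and 1.15 in TyrRS-E196K∆NLS. The TyrRS-WT libraries were all below those of control and of TyrRS-WT∆NLS. The log2 difference from TyrRS-WT∆NLS was -1.02 (SE 0.34) and did not pass the threshold (adjusted p = 0.261 from edgeR). Dhc16F, the lowest chain, was at 0.071, 0.159 and 0.296 CPM in control and between 0.161 and 0.560 in the transgenic libraries. The TyrRS-E196K libraries, from 0.308 CPM upwards, lay above all controls. Their log2 fold change was 1.28 (SE 0.43, adjusted p = 0.0901 from edgeR), on counts of at most 28 in any library.

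The intraflagellar heavy chain btv, which returns material from the tip of sensory cilia, was at 4.52, 3.95 and 3.43 CPM in control. In TyrRS-E196K it was at 5.90, 5.51, 4.63 and 3.87 CPM, a log2 fold change of 0.33 (SE 0.18, adjusted p = 0.323 from edgeR) with overlapping groups. The summed level of 15 markers of ciliated chordotonal neurons was between 103.8 and 110.4 CPM in control and between 99.1 and 115.5 in the transgenic libraries. Most of this sum came from Rfx, at 57.5 to 68.8 CPM over all libraries, so it says little about the other markers. For TyrRS-E196K against control 1 of the 15 was called (Oseg6, lower), and for TyrRS-E196K∆NLS 3 were (Oseg5 and nompA higher, rempA lower), beside 6.42% and 4.78% of all genes tested. The sperm tail dyneins kl-2, kl-3 and kl-5, markers of the testis, were at or near 0, with at most 0.038 CPM in any library, while bol, another gene of the testis list, was at 288 to 520.2 CPM.

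**Figure D2:**
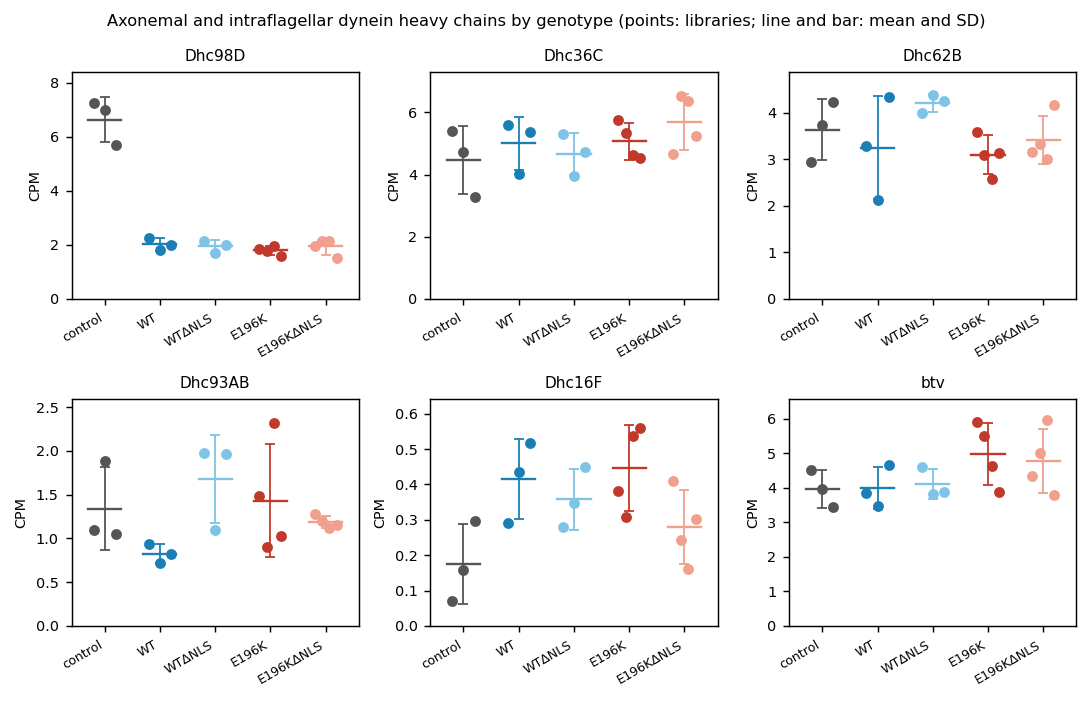
CPM of the 5 axonemal heavy chains and of the intraflagellar chain btv in each library (points) by genotype, with the mean as a line and the SD as a bar; the axes start at 0. Dhc98D is at 5.68 to 7.24 CPM in control and at 1.52 to 2.27 in all transgenic libraries, while the control libraries of the other chains overlap those of most other genotypes.

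The genes of axonal transport were close to the control level in every transgenic genotype. Dhc64C was at 407, 438 and 384 CPM in control and at 461, 425, 390 and 501 in TyrRS-E196K, a log2 fold change of 0.12 (SE 0.11, adjusted p = 0.594 from edgeR). The groups overlapped. Gl was at 101, 106 and 108 CPM in control and at 109, 112, 111 and 116 in TyrRS-E196K. These groups did not overlap, but the log2 fold change was 0.10 (SE 0.05) and did not pass the threshold (adjusted p = 0.274 from edgeR).

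The 2 light chains were lower on average in the transgenic genotypes without passing the test. In control, ctp, the more abundant of them, was at 979, 642 and 708 CPM, and in the 14 transgenic libraries it ranged from 569 to 722 with a median of 654. Control replicate 1 was high, and this library also had the highest neuronal marker sum, 9507 CPM. Control libraries of robl held 30.5, 32.2 and 37.7 CPM and TyrRS-E196K libraries 25.7, 26.0, 28.1 and 27.5, with no overlap. The log2 fold change of robl was -0.32 (SE 0.09), just outside the threshold (adjusted p = 0.0549 from edgeR). It passed in 6 of 25 alternative fits, with adjusted p-values from 0.0111 to 0.29, so that no call is made for it here. Its log2 fold changes were -0.25 in TyrRS-E196K∆NLS, -0.14 in TyrRS-WT and -0.12 in TyrRS-WT∆NLS.

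Among the kinesins, unc-104 was at 2388, 2134 and 2005 CPM in control and between 1859 and 2500 in the transgenic libraries. Its log2 fold change for TyrRS-E196K was 0.07 (SE 0.09, adjusted p = 0.74 from edgeR). Khc was at 155, 173 and 169 CPM in control and at 174, 163, 183 and 188 in TyrRS-E196K, overlapping groups with a log2 fold change of 0.10 (SE 0.07). For its partner Klc the value was 0.05 (SE 0.05). The kinesin-2 subunits Klp64D and Klp68D had values of -0.05 and -0.07. Klp98A, a kinesin-3 of endosomes, was at 103, 101 and 89.4 CPM in control and at 124, 115, 106 and 108 in TyrRS-E196K, with no overlap. Its log2 fold change of 0.22 (SE 0.07) did not pass the threshold (adjusted p = 0.0699 from edgeR), and DESeq2 alone called it. Of the 16 kinesins 9 had a positive log2 fold change in this comparison and none was called. At an unadjusted p under 0.05 there were 9 of the 36 genes, beside 20.4% of all genes tested.

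How large a change could have gone unseen is given by the intervals. For the 18 genes other than betaTub60D with a mean of at least 10 CPM, the log2 fold changes of TyrRS-E196K against control lay between -0.32 and 0.22. Their 95% intervals, not adjusted for the number of genes, all lay between -0.52 and 0.36. The same bounds were -0.45 and 0.39 in TyrRS-E196K∆NLS, -0.54 and 0.44 in TyrRS-WT, and -0.53 and 0.44 in TyrRS-WT∆NLS. Between TyrRS-E196K and TyrRS-E196K∆NLS they were -0.40 and 0.33.

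**Figure D3:**
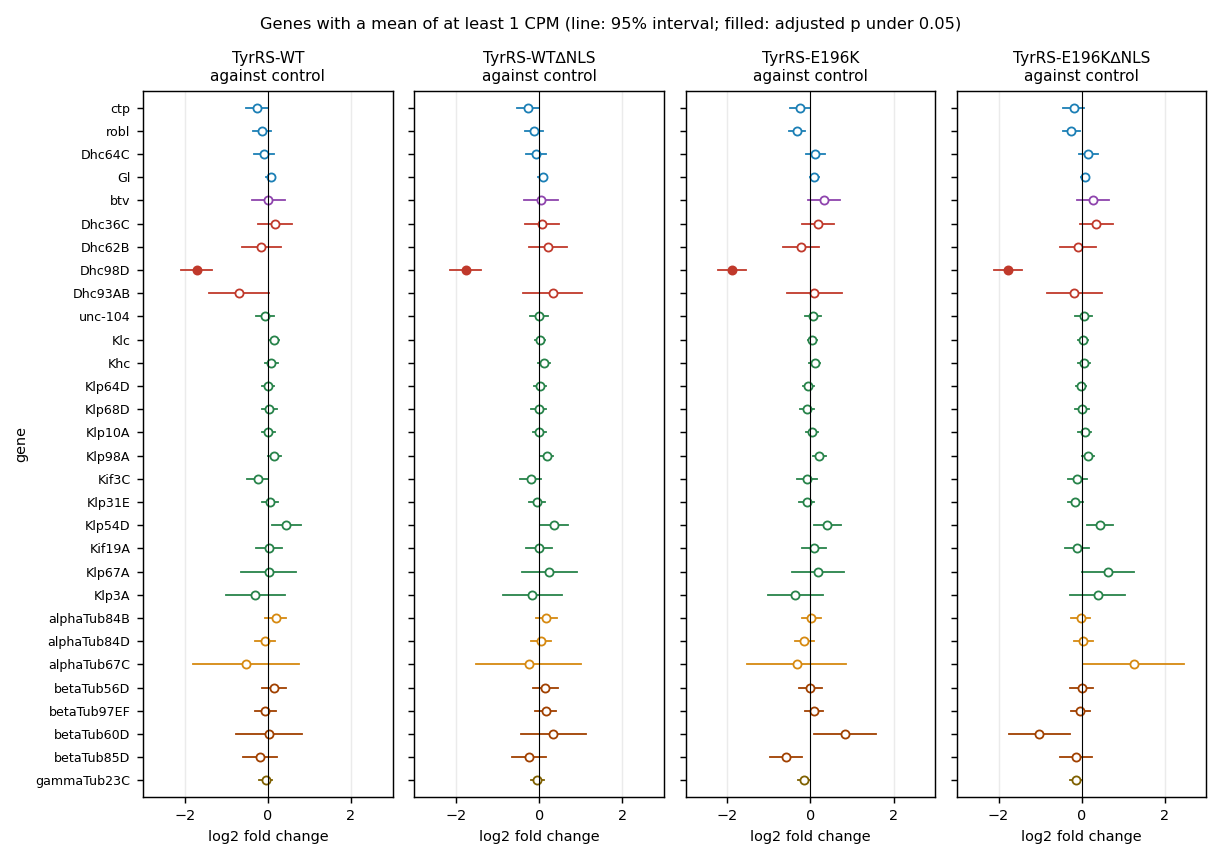
Log2 fold change against control for the 30 genes that averaged 1 CPM or more, in each transgenic genotype, with the 95% interval as a line, colours by role as in the plot of levels, and filled dots for an adjusted p under 0.05. Dhc98D is the filled dot in every panel, at -1.71, -1.77, -1.88 and -1.77 from left to right, and the motors of axonal transport lie close to 0.

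Effects of the mutation and of the nuclear signal were then compared between transgenic genotypes. For TyrRS-E196K against TyrRS-WT none of the 36 genes was called by edgeR or by DESeq2, while 1.55% of all genes tested were called. An unadjusted p under 0.05 was found for 3 of the 36, beside 11.2% of all genes tested. For TyrRS-WT against TyrRS-WT∆NLS none was called by either tool, with 1.08% of all genes called. At an unadjusted p under 0.05 there was 1 of the 36, beside 9.53% of all genes. For TyrRS-E196K∆NLS against TyrRS-WT∆NLS none was called by edgeR, with 1.32% of all genes called, and DESeq2 called 1, betaTub60D. Here 4 of the 36 had an unadjusted p under 0.05, beside 12% of all genes. For TyrRS-E196K against TyrRS-E196K∆NLS 1 gene was called, betaTub60D as higher, with 5.7% of all genes called.

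betaTub60D (FBgn0003888) lies on chromosome 2R from 24305881 to 24313099 in BDGP6. It encodes a beta tubulin used in the development of muscle and of the cells that attach chordotonal organs. The TyrRS-E196K libraries held 45.2, 55.1, 35.4 and 32.0 CPM and the TyrRS-E196K∆NLS libraries 9.94, 10.6, 11.7 and 14.0. In TyrRS-WT it was at 30.2, 21.7 and 19.7 CPM, in TyrRS-WT∆NLS at 24.5, 36.3 and 28.0, and in control at 12.8, 44.2 and 13.3. The TyrRS-E196K libraries were all above every TyrRS-E196K∆NLS library, and the second control library stood at the level of TyrRS-E196K while the other controls were at the level of TyrRS-E196K∆NLS.

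Between TyrRS-E196K and TyrRS-E196K∆NLS the log2 difference was 1.86 (SE 0.33, edgeR adjusted p = 0.00255), a 3.63-fold higher level, and the call was made in 25 of 25 alternative fits. Against TyrRS-WT∆NLS, TyrRS-E196K∆NLS was lower by a log2 difference of -1.36 (SE 0.34) with no overlap, which did not pass the threshold (adjusted p = 0.0737 from edgeR) and did so in 5 of 25 alternatives. TyrRS-E196K lay above TyrRS-WT with no overlap, by 0.81 (SE 0.35, adjusted p = 0.395 from edgeR). The interaction, which asks whether the effect of E196K differs with and without the nuclear signal, was 2.17 (SE 0.49, adjusted p = 0.0375 from edgeR), with 1.45% of all genes called. It was called in 11 of 25 alternative fits and lost in the other 14, most of them fits without 1 library, and also the fit with robust estimation (adjusted p = 0.0829).

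The comparisons of betaTub60D with control rest on control replicate 2. For TyrRS-E196K against control the log2 fold change was 0.84 (SE 0.35, adjusted p = 0.185 from edgeR), and without that library it was 1.68 (adjusted p = 0.000822). For TyrRS-E196K∆NLS it was -1.02 (SE 0.34, adjusted p = 0.122 from edgeR) and -0.18 without it (adjusted p = 0.766). The same library had the highest summed level of 12 muscle markers, 840 CPM against 277 and 292 in the other controls. In TyrRS-E196K these markers were at 386 to 737 CPM and in TyrRS-E196K∆NLS at 418 to 719, and the ranges overlap. Of 15 chordotonal markers, 3 were called higher in TyrRS-E196K than in TyrRS-E196K∆NLS (nompC, rempA and Oseg2) and 2 lower (Oseg5 and Oseg6), beside 5.7% of all genes tested. The 15 markers summed, mostly Rfx, were at 108 to 109.5 CPM in TyrRS-E196K and at 99.1 to 112 in TyrRS-E196K∆NLS. The summed fat body markers were at 10261 to 31300 CPM in TyrRS-E196K and at 32908 to 46552 in TyrRS-E196K∆NLS, with no overlap. The part of RNA from these tissues in the result was not tested. Of the 9 nearest genes with reads, up to 38.4 kb away, none was called between these genotypes. Several of these genes had almost no reads, such as CG13577 at a mean of 0.024 CPM, and for those the lack of a call says little. The general form betaTub56D differed between TyrRS-E196K and TyrRS-E196K∆NLS by -0.0031 (95% interval -0.26 to 0.25) on the log2 scale.

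**Figure D4:**
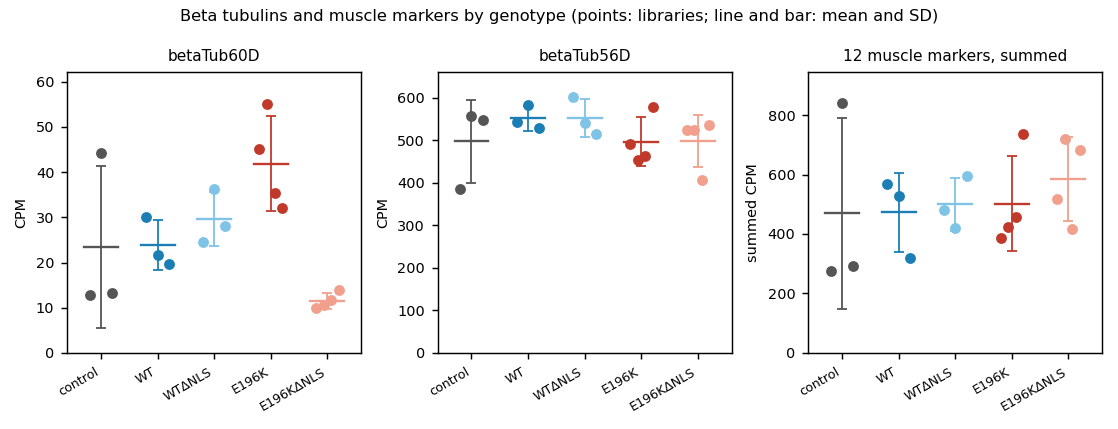
CPM of betaTub60D and betaTub56D and the summed CPM of 12 muscle markers in each library (points) by genotype, with the mean as a line and the SD as a bar; the axes start at 0. betaTub60D is at 32.0 to 55.1 CPM in TyrRS-E196K and at 9.94 to 14.0 in TyrRS-E196K∆NLS, and its second control library, at 44.2 CPM, is also the one with the highest muscle markers, at 840 CPM.

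Genes used in the germ line and in dividing cells were high in TyrRS-E196K∆NLS replicates 2 and 4. There alphaTub67C was at 9.94 and 13.6 CPM, against 1.25 to 5.07 in the other 15 libraries. Klp61F was at 1.65 and 2.67 CPM, against 0.071 to 0.727. gammaTub37C was at 1.33 and 2.56 CPM, against 0 to 1.18. The kinesins Klp3A, at 4.41 and 5.90 CPM, and Klp67A, at 3.54 and 5.03, were also highest there. The summed level of 5 ovary markers was 40.0 and 34.3 CPM in these libraries, against 3.53 to 11.9 in the others, and the highest single value of each marker was in one of the pair. The part of ovary RNA in these values was not tested.

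None of these 5 genes was called in any of the 9 comparisons. For TyrRS-E196K against TyrRS-E196K∆NLS the log2 difference was -1.58 for alphaTub67C (SE 0.52, adjusted p = 0.0961 from edgeR) and -2.56 for Klp61F (SE 0.79, adjusted p = 0.0736). Without replicates 2 and 4, chosen as an alternative after seeing the data, it was -0.32 for alphaTub67C, -0.57 for Klp61F and -0.93 for gammaTub37C. The testis form betaTub85D was not part of this pattern. It was at 2.83, 2.55 and 3.48 CPM in control and at 1.82, 1.94, 1.82 and 2.24 in TyrRS-E196K, groups that did not overlap, with a log2 fold change of -0.59 (SE 0.18) that did not pass the threshold (adjusted p = 0.0636 from edgeR).

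**Figure D5:**
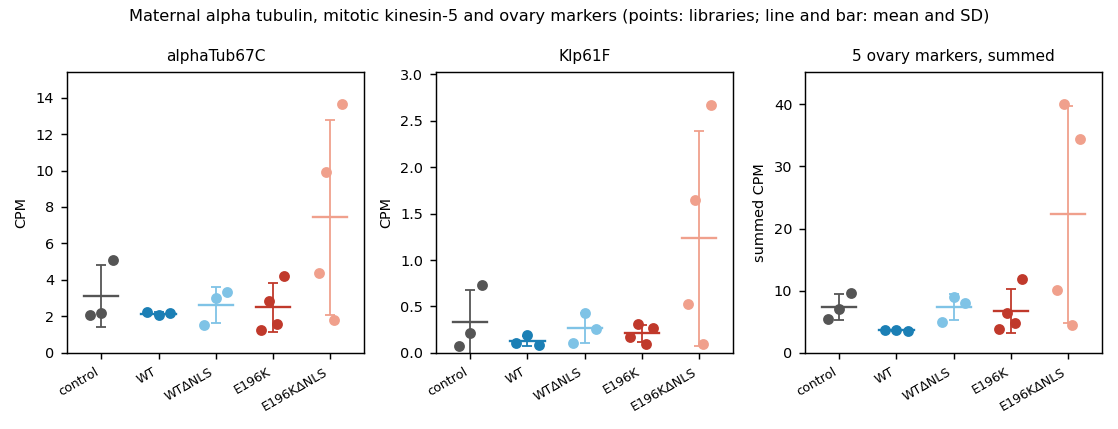
CPM of alphaTub67C and Klp61F and the summed CPM of 5 ovary markers in each library (points) by genotype, with the mean as a line and the SD as a bar; the axes start at 0. TyrRS-E196K∆NLS replicates 2 and 4, at 9.94 and 13.6 CPM of alphaTub67C and 40.0 and 34.3 summed CPM of the markers, lie above all others in each panel.

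Of the major tubulins, alphaTub84B was at 781, 994 and 1005 CPM in control and at 872, 900, 915 and 1080 in TyrRS-E196K, and betaTub56D at 386, 558 and 549 and at 492, 454, 462 and 579. Their log2 fold changes in TyrRS-E196K were 0.02 (SE 0.11) and -0.0017 (SE 0.13). For both, control replicate 1 was the lowest of its group. gammaTub23C was at 38.9, 36.6 and 46.0 CPM in control and at 36.2, 36.6, 35.2 and 37.6 in TyrRS-E196K, a log2 fold change of -0.15 (SE 0.07, adjusted p = 0.209 from edgeR).

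The wider pathway was looked at with 58 further genes of 3 lists, the partners of dynein and dynactin (20 genes with reads), other kinesins and cargo adaptors (16), and tubulin folding and microtubule-associated proteins (22). For TyrRS-WT against control none of them was called. For TyrRS-WT∆NLS 1 was lower, Grip163, a part of the gamma tubulin ring complex, at -0.35 (SE 0.08, adjusted p = 0.029 from edgeR). For TyrRS-E196K 2 were higher and 1 lower, and for TyrRS-E196K∆NLS 1 was higher and 1 lower, the latter (FBgn0010622, from the list of dynein and dynactin partners) at -0.38 (SE 0.09, adjusted p = 0.0237 from edgeR). Over all genes tested the shares called were 3.76%, 6.42% and 4.78% in these 3 comparisons. Counts of 1 to 3 among 58 genes lie near these shares and show nothing particular to this pathway. In the 5 comparisons that do not use control none was called.

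Spindly, an adaptor that activates dynein at the kinetochore, was the gene called in both E196K genotypes. Its means were 1.10 CPM in control, 2.73 in TyrRS-WT (not called), 1.12 in TyrRS-WT∆NLS, 2.94 in TyrRS-E196K and 2.77 in TyrRS-E196K∆NLS. The log2 fold change was 1.42 in TyrRS-E196K (SE 0.32, adjusted p = 0.0154 from edgeR) and 1.33 in TyrRS-E196K∆NLS (SE 0.32, adjusted p = 0.0236). The highest value of Spindly, 4.81 CPM, was in TyrRS-E196K∆NLS replicate 4, a library with high ovary markers. The part of ovary RNA in this value was not tested. In TyrRS-E196K the microtubule-associated protein Map205 was higher by 0.37 (SE 0.10, adjusted p = 0.033 from edgeR) and the tubulin-binding protein stai, a stathmin, was lower by a log2 fold change of -0.31 (SE 0.08, adjusted p = 0.038).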

How the data were processed

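Per the submitters' processing notes and methods, the authors trimmed reads with Trimmomatic 0.32, aligned them to BDGP6 with TopHat2 2.0.12 and made gene counts with HTSeq 0.6.1. The deposited counts of 17 libraries were used; the deposited normalized table was not. The authors removed outlier libraries before deposit. The 6 lines that are no gene were left out; ambiguous reads and reads on no feature made up 8.13% to 10.1%. One TyrRS-WT∆NLS column matches no label number, and was used as a library without a number. The label left over for this genotype bears the number of a library that the methods list as removed.

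Counts were tested with edgeR 4.0.16 (R 4.3.3; limma 3.58.1) by glmQLFit and glmQLFTest, TMM normalization, 1 fit of all libraries, genes with reads in at least 1 library and Benjamini-Hochberg adjustment over 16163 genes. The authors' batch factor could not be included. glmQLFit was used with its default settings. Robust estimation was tried with the results of a first fit in view and is given as an alternative; it changes 2 calls (robl in TyrRS-E196K and the interaction of betaTub60D). Alternatives were DESeq2 1.42.0, its size factors in edgeR, a surrogate variable (sva 3.50.0), the filter of filterByExpr, the compared genotypes alone, a replicate block and each library left out, with 2 of 25 added after seeing the data. The fits were tested on simulated data.

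Genes and lists were chosen with earlier results of these data known. Named with values were genes called in any of the 9 comparisons, the transport genes, every axonemal heavy chain among the 36 genes, and btv. So were the highest tubulin of each family, betaTub85D, alphaTub67C, gammaTub37C, Klp64D and Klp68D. Other genes were named after their values were seen. Annotation of BDGP6 gave positions and exon lengths, with 33 genes matched by identifier and 3 by symbol.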

Additional observations from a re-analysis of the deposited data

Results flagged for a closer look

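In TyrRS-E196K∆NLS, betaTub56D was at 407 CPM in the third library against 524 to 537 CPM in the other 3, a library far from the rest of its group. This was the only such case among 68 groups of 4 libraries (34 genes in 2 genotypes), where chance alone marks about 5% of groups.

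The log2 difference of betaTub60D between TyrRS-E196K and TyrRS-WT was 2.17 larger than that between TyrRS-E196K∆NLS and TyrRS-WT∆NLS (SE 0.49, adjusted p = 0.0375 from edgeR). This difference between the 2 effects was called in 11 of 25 alternative fits, with adjusted p-values from 0.000378 to 0.119. Both TyrRS-WT genotypes carry the same number of transgene copies and both TyrRS-E196K genotypes differ in it, so that copy number and this difference cannot be told apart.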

How the results depend on the processing

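Dhc98D kept its call against control in all 25 alternatives of each of the 4 comparisons, and betaTub60D kept its call between TyrRS-E196K and TyrRS-E196K∆NLS in all 25. For TyrRS-E196K against control, 3 of the 36 genes were called with the filter on low counts (robl and betaTub85D beside Dhc98D), 2 with DESeq2's size factors, 2 with robust estimation and 4 with DESeq2's Wald test (with Klp98A), and 1 to 2 with a library left out. DESeq2 called 2 genes for TyrRS-E196K∆NLS against control, 3 for TyrRS-E196K against TyrRS-E196K∆NLS and 1 for TyrRS-E196K∆NLS against TyrRS-WT∆NLS, where the compared libraries alone also gave 1. With a library left out these numbers ran from 1 to 2, from 1 to 3 and from 0 to 1, and for TyrRS-WT∆NLS against control from 1 to 2. Without control replicate 2, betaTub60D was also called for TyrRS-E196K and TyrRS-WT∆NLS. Without TyrRS-E196K∆NLS replicate 3, alphaTub67C and Klp61F were also called against TyrRS-E196K.

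The interaction of betaTub60D was the call most open to settings, with 0 genes called with robust estimation, 0 with the replicate block (which leaves out the library without a number; 1.97, adjusted p = 0.119 from edgeR), 0 without TyrRS-E196K∆NLS libraries 2 and 4, and 0 to 1 with a library left out. The numbers do not pair the libraries: over 27 pairs of the same number from different genotypes the mean correlation of deviations was -0.011, against 0.0031 over 88 other pairs. The block changed no other number of these genes called. The log2 fold change of Klc in TyrRS-E196K against control ran from -0.0013 (reversed, without control replicate 1) to 0.098 with a library left out, and that of Klp3A between TyrRS-E196K and TyrRS-E196K∆NLS to 0.037 without TyrRS-E196K∆NLS libraries 2 and 4. The cause of these changes was not tested.

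Over all genes, the number called moved from 376 to between 134 and 754 for TyrRS-WT, from 1037 to between 412 and 1627 for TyrRS-E196K, from 608 to between 201 and 1113 for TyrRS-WT∆NLS and from 773 to between 365 and 1119 for TyrRS-E196K∆NLS against control. It moved from 250 to between 133 and 448 for TyrRS-E196K against TyrRS-WT, from 921 to between 452 and 1461 against TyrRS-E196K∆NLS, from 175 to between 77 and 328 for TyrRS-WT against TyrRS-WT∆NLS, from 214 to between 79 and 457 for the ∆NLS pair and from 234 to between 145 and 551 for the interaction. Genes under 1 CPM, Dhc16F among them, rest on few counts.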
